A study of Mus musculus with 768 samples.

Results

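Nipal1, Cd63, Rap2b and Smim5 are 4 of the 25700 genes counted in single Schwann cells (SCs) of the mouse sciatic nerve at postnatal day 5 (P5), and they were grouped as genes peaking in cells intermediate between immature and myelinating SCs. They were chosen on an earlier clustering of these same wells. Nipal1 and Cd63 were chosen as higher in the intermediate cluster than in its neighbours, Rap2b by its mean over intermediate cells against all others, and Smim5 for its loss from intermediate to myelinating cells. Their levels over the states below are therefore descriptions, given without a test.

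The mice, on the C57bl/6J background, carried 3 transgenes, each on 1 allele: a Cre (-/+), the ReYFP reporter (Tg/+) and βAct-DsRed (Tg/+). The Cre is active in the Schwann cell lineage and switches on the yellow fluorescent reporter by which cells were sorted. All mice also carried DsRed under an actin promoter, so every state shares the same alleles. Sorted eYFP-positive cells, 1 per well, filled 2 plates of 384 wells for Smart-Seq2, a protocol that reads whole transcripts. A male and a female pup were pooled for each plate, and the 2 plates used different animals and are the only biological replicates (n = 2).

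Of the 768 wells, 655 were used: those with at least 1500 detected genes, without the corner wells. Retained wells held a median of 593534 reads in plate 1 (range 3306 to 2495101) and 559286 in plate 2 (31127 to 2149795). Cells with at least 5 reads in at least 3 of 10 mitosis genes were called cycling (32 wells in plate 1, 25 in plate 2). Of the others, wells under 10 CPM (reads of a gene relative to all reads of its well) of the myelin gene Ncmap were called immature (106 and 122). Ncmap-positive wells were called intermediate when Pmp22, a protein of compact myelin, was under 30000 CPM (79 and 70) and myelinating above it (108 and 113). Levels are the CPM of the reads summed over the wells of a plate and state, 8 sums in all. Schwann cell genes were present in every state: Sox10 was at 178 to 311 CPM, S100b at 40.3 to 487 CPM and Erbb3 at 84.1 to 175 CPM over the 8 sums. The pro-myelinating gene Cdkn1c was at 3078 and 2005 CPM in the intermediate sums and at 91.2 and 49.2 CPM in the myelinating ones. It was also high in the immature sums, at 1908 and 861 CPM. Pou3f1, the other pro-myelinating gene sought, did not set intermediate apart from immature cells. It was at 158.0 and 149.7 CPM in the intermediate sums and at 111.9 and 155.8 CPM in the immature ones. Of the other cell types sought, Pecam1, Cdh5, Ptprc, Aif1, Lyz2, Rgs5, Lypd2 and Elavl4 were at 0 in all 8 sums, while other genes of the same lists were present. Pdgfrb, of pericytes, was at 40.2 to 44.6 CPM in intermediate and myelinating cells and at 0 to 8.21 CPM in the other sums. Cspg4 was highest in cycling cells (49.0 and 56.4 CPM), Kdr was at 16.5 and 17.9 CPM in myelinating cells, Csf1r at no more than 14.1 CPM and Slc2a1 at no more than 45.5 CPM. Their part in the results was not tested. Col3a1 was found at 132 to 2468 CPM, with the other 3 fibroblast genes at no more than 28.7 CPM each, and no well met the fibroblast list.

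Immature SCs sort axons and, once paired with a single large axon, become pro-myelinating and then wrap it, switching off genes of the immature state while myelin protein and lipid genes rise. The 4 genes do different things. Nipal1 encodes a membrane protein of the NIPA family of magnesium transporters. Cd63 encodes a tetraspanin of late endosomes, lysosomes and released vesicles. Rap2b encodes a small GTPase of the Ras superfamily, and Smim5 a small integral membrane protein with no role given here.

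In GENCODE vM21 (GRCm38), Nipal1 (ENSMUSG00000067219) lies at chr5:72647795-72671078 and Cd63 (ENSMUSG00000025351) at chr10:128900989-128912822. Rap2b (ENSMUSG00000036894) lies at chr3:61361638-61368430 and Smim5 (ENSMUSG00000048442) at chr11:115899966-115906269. All are protein-coding genes of the plus strand. The 250 bases before the start given by RefSeq are shown for Nipal1 and Cd63, the members with the highest intermediate level, to set their starts side by side. They are from RefSeq on GRCm38.p6, which held an entry for 3 of the 4 members, read on the plus strand at chr5:72647546-72647795 and chr10:128909095-128909344. The Cd63 window lies inside the GENCODE span given above, which begins further upstream, and 0 of its 250 bases are in annotated exons. Capitals mark the matches of 8 motifs searched on both strands.
Nipal1: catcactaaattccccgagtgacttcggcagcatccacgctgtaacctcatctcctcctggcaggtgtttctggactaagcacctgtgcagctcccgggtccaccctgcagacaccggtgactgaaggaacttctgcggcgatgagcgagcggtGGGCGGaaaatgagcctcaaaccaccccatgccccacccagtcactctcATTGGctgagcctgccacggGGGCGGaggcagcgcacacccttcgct
Cd63: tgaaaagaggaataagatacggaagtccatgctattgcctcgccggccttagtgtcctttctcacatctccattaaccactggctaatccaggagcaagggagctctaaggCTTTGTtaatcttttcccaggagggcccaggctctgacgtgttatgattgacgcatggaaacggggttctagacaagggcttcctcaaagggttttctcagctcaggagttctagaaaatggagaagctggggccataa
The Nipal1 window held GGGCGG, the GC box, with its first base at -96 and at -27 of the start, and CCAAT on the minus strand at -47. The Cd63 window held ACAAAG, the core read by SOX factors, on the minus strand at -139. Of 32851 promoter windows of this length, 32.7% held GGGCGG, 33.8% CCAAT and 16.5% ACAAAG. Neither window held TATAAA (12.4% of all windows), CACGTG (6.02%), TGACTCA (4.46%), ATGCAAAT (1.60%) or GCGTGGG (4.30%). The members thus share none of the 8 motifs between these 2 windows, and a match is a string of letters, not a site shown to be used. The Rap2b window, which lies wholly inside annotated exons, held GGGCGG 3 times on the minus strand.

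Nipal1 was the only member highest in the intermediate state in both plates. Its level was 374 CPM in plate 1 and 320 CPM in plate 2 in intermediate cells, a mean of 347 ± 38.2 CPM (SD, n = 2 plates). In immature cells it was 148 and 202 CPM. In cycling cells it was 146 and 80.7 CPM, and in myelinating cells 116 and 89.5 CPM. Both intermediate values lay above all 6 others, while the cycling and myelinating ranges overlapped and the immature and cycling ranges only just failed to. The intermediate level was 2.00-fold the immature one over the plates, with log2 ratios of 1.33 in plate 1 and 0.66 in plate 2. From intermediate to myelinating it was 3.37-fold lower, with log2 ratios of -1.68 and -1.83. It was the highest state for Nipal1 under all 13 alternatives tried, 2 of which held 1 plate each. All of them reuse the wells on which Nipal1 was chosen, so they are no independent support for the pattern.

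Many intermediate cells had no Nipal1 read. A read was found in 60.8% of the intermediate wells of plate 1 (95% interval 49.1 to 71.6) and in 80.0% of those of plate 2 (68.7 to 88.6). The immature shares were 38.7% (29.4 to 48.6) in plate 1 and 61 of 122 wells in plate 2 (40.8 to 59.2), and the myelinating ones 52.8% (42.9 to 62.5) and 53.1% (43.5 to 62.5) in the 2 plates. Thinning to 100000 reads per well left out the 15 and 7 retained wells below that depth, of which 7 and 1 were intermediate. In the thinned wells the intermediate shares were 65.3% and 79.7%, the immature ones 35.6% and 44.4% and the myelinating ones 45.3% and 46.9%. Intermediate cells thus stood highest in both plates also at equal depth. Among wells with a read, the median level was 413 and 368 CPM in intermediate, 491 and 349 CPM in immature and 155 and 143 CPM in myelinating cells. Medians of positive intermediate and immature wells were thus in opposite order in the 2 plates, while the share of wells with a read was higher in intermediate cells in both. No single well carried the intermediate level, since the highest well gave 9.35% of the reads in plate 1 and 8.27% in plate 2.

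Cd63 was high in immature and intermediate cells alike and lower in cycling and myelinating cells. The intermediate sums held 2493 and 2534 CPM and the immature sums 2501 and 2174 CPM. In plate 2 the intermediate well in row E, column 6 held 12913 CPM and gave 19.8% of the Cd63 reads of its sum. The highest well gave 14.3% of the intermediate reads in plate 1, and 13.8% and 8.27% of the immature ones. Cycling cells held 1493 and 1374 CPM, and myelinating cells 843 and 717 CPM. The immature and intermediate ranges overlapped, so their order was not set by these plates, and both lay above the cycling range, which lay above the myelinating one. The log2 ratio of intermediate to immature was -0.0046 in plate 1 and 0.22 in plate 2. From intermediate to myelinating it was -1.56 and -1.82, a 3.23-fold lower level. The intermediate state was the highest in both plates under 6 of the 11 alternatives that kept both plates, among them totals without the 10 genes with most reads and the mean of well CPM. Cd63 was found in nearly every well, from 97.5% of immature wells in plate 2 to 100% in both plates of cycling cells, so the states differed in amount and not in the share of cells. The median well held 1995 and 1739 CPM in intermediate, 1796 and 1874 CPM in immature and 693 and 678 CPM in myelinating cells.

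Transcripts of melanocytes, pigment cells of the same neural crest origin in which Cd63 is also abundant, were present at a much lower level. Their sum, like Cd63, was higher in intermediate and immature than in cycling and myelinating cells. It was lowest in cycling cells, where Cd63 was lowest in myelinating cells. The summed level of Pmel, Dct and Tyrp1 was 97.0 and 79.6 CPM in intermediate, 46.1 and 69.9 CPM in immature, 9.80 and 18.8 CPM in myelinating and 0.151 and 4.45 CPM in cycling cells. Of the 655 wells, 1 immature well met that list. Their part in the Cd63 or Nipal1 levels was not tested.

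Rap2b was a low gene, and its place in the group rested on a few wells of plate 1. Summed levels were 73.8 and 44.1 CPM in intermediate, 72.3 and 61.5 CPM in immature, 58.4 and 51.0 CPM in cycling and 25.7 and 23.1 CPM in myelinating cells. The intermediate state was highest in plate 1 and below the immature and cycling states in plate 2, and its range overlapped the immature and cycling ones. Only the myelinating range lay apart, below the rest. The mean over wells gave another picture, with 1031 CPM in the intermediate cells of plate 1 against 47.4 CPM in those of plate 2, and a log2 ratio of intermediate to immature of 1.59 over the plates, where the sums gave -0.22. In plate 1 the intermediate well in row A, column 16 held 72351 CPM of Rap2b, or 1232 of its 17028 reads, and the well in row B of the same column 5967 CPM. The next highest of all retained wells, an immature one, held 1002 CPM. Without the highest well the intermediate sum of plate 1 was 47.6 CPM, and without both it was 39.3 CPM, below the immature sum of 72.3 CPM. Column 16 of plate 1 held 8949 of the 18537 Rap2b reads of that plate, 48.3%, in 6 of its 16 wells. The median intermediate well held 3.94 CPM in plate 1 and 6.84 CPM in plate 2, against 21.7 and 12.6 CPM in immature cells. A Rap2b read was found in 53.2% and 64.3% of intermediate wells and in 67.0% and 59.8% of immature wells, with overlapping 95% intervals.

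Rap2b overlaps B430305J03Rik, an annotated gene on the opposite strand that lies within it, and the protocol does not keep strand. How the counting divided reads between them was not examined. The table counts that gene apart, at 22.4 and 17.99 CPM in intermediate and at 39.1 and 30.3 CPM in immature cells. Smim5 in turn overlaps Recql5, a DNA helicase gene on the opposite strand, which was at 2.51 to 12.99 CPM over the 8 sums.

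Smim5 went against the label of the group in both plates. It was highest in cycling cells in plate 1 (471 CPM) and in immature cells in plate 2 (386 CPM), with 426 CPM in immature cells of plate 1 and 293 CPM in cycling cells of plate 2. The intermediate sums held 45.2 and 60.2 CPM, and the myelinating sums 8.17 and 2.92 CPM. Cycling and immature ranges overlapped, and each further step down lay apart. The intermediate level was 7.65-fold below the immature one, with log2 ratios of -3.21 and -2.66, and the myelinating level another 8.86-fold below it, with log2 ratios of -2.33 and -3.96. Smim5 was the highest in intermediate cells under 0 of 13 alternatives. The share of wells with a read followed the same order. It was 52.8% (42.9 to 62.6) and 57.4% (48.1 to 66.3) in immature cells, 13.9% (7.16 to 23.5) and 27.1% (17.2 to 39.1) in intermediate cells, and 7.41% (3.25 to 14.1) and 7.08% (3.11 to 13.5) in myelinating cells. In intermediate cells the 5 highest wells gave 94.2% of the Smim5 reads in plate 1 and 66.3% in plate 2. A single myelinating well gave 63.9% of the Smim5 reads of that state in plate 1 and another gave 95.7% in plate 2, so the myelinating level was that of isolated wells. Smim5 is thus described here as a gene of cycling and immature cells that was still found in some intermediate cells.

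**Figure D1:**
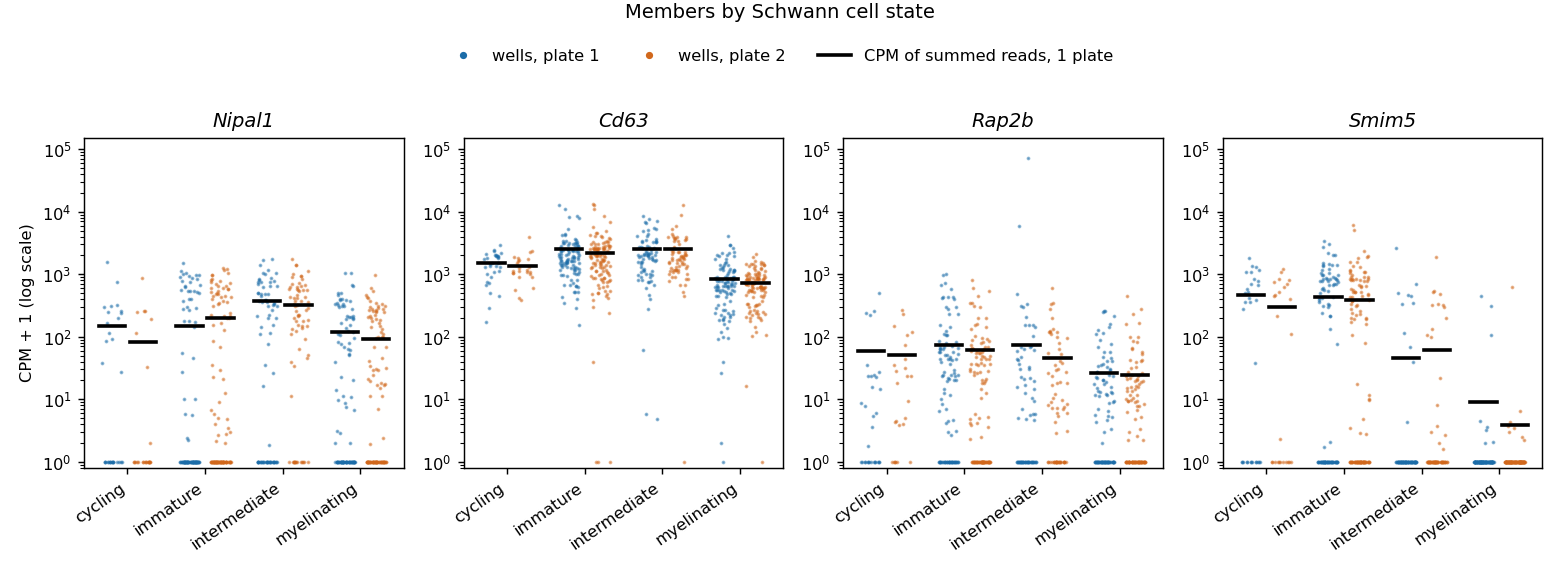
Level of each member in CPM + 1 (log scale) by state. Each point is 1 well, blue for plate 1 and orange for plate 2, and each black bar is the CPM of the summed reads of a plate and state. The intermediate bars stand highest for Nipal1 (374 and 320 CPM) in both plates, level with immature for Cd63, and far below immature for Smim5 (45.2 and 60.2 CPM). The single Rap2b point near the top is the well at 72351 CPM.

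**Figure D2:**
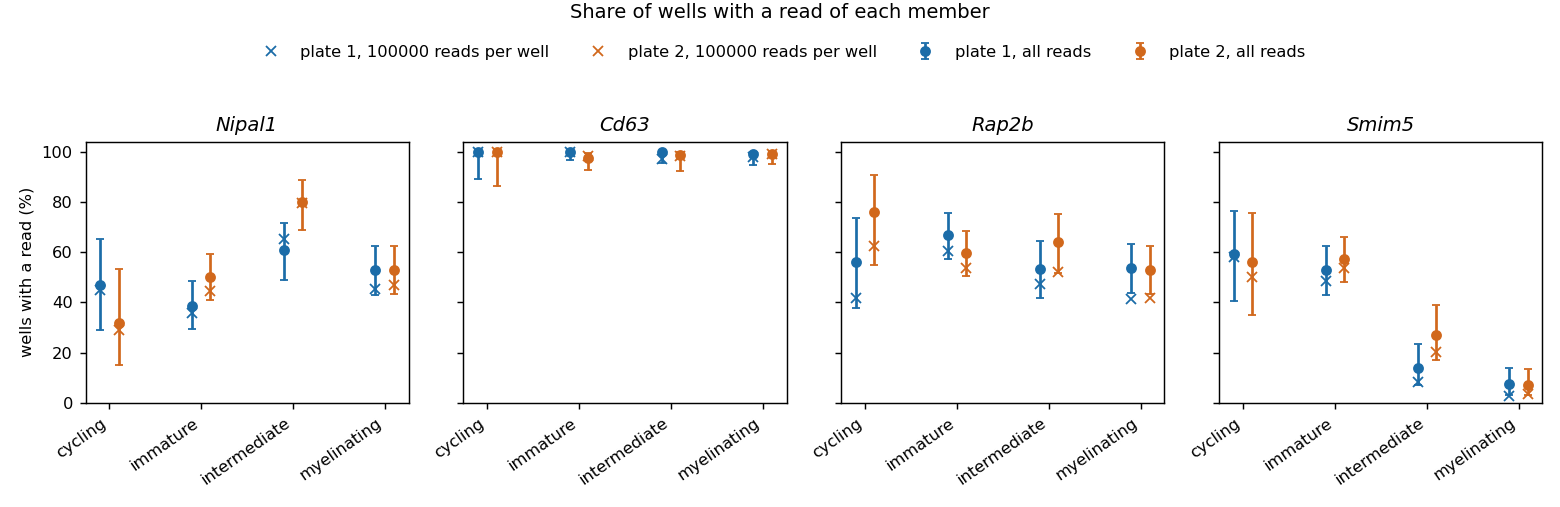
Share of wells with at least 1 read of each member (%), by state and plate. Circles are all reads with exact 95% intervals over wells, and crosses are wells thinned to 100000 reads, without the wells below that depth. Nipal1 peaks in intermediate cells (60.8% and 80.0%), Cd63 is near 100% in all states, and Smim5 is lower in intermediate and myelinating than in immature cells.

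Compared per kilobase of exon, Cd63 was the most abundant member in intermediate cells, at 677 and 688 CPM per kilobase. Nipal1 followed at 85.2 and 72.9, Smim5 at 27.4 and 36.5, and Rap2b at 10.9 and 6.49 CPM per kilobase. In immature cells Smim5, at 258 and 234 CPM per kilobase, stood above Nipal1, at 33.7 and 45.9. At least 1 of the 4 members was found in every retained well but 1, a myelinating one. Nipal1 and Smim5 were found together in 7 of 79 and 16 of 70 intermediate wells. Within the intermediate state the levels of the 4 genes varied with little relation between wells. Spearman's rho between pairs of members ran from -0.15 to 0.18 within a plate (79 and 70 wells, which share a library preparation and differ in depth).

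How the members varied along Pmp22 was followed in the 370 Ncmap-positive, non-cycling wells, where Pmp22 ran from 344 to 114893 CPM. Wells of each plate were ranked by Pmp22 and divided into 8 groups of 22 to 24 wells. By summed CPM in these groups, Nipal1 was the one member whose highest group was not the lowest in Pmp22. It was at 271 CPM in the lowest group of plate 1, at 509 CPM in the third and at 39.5 CPM in the seventh. In plate 2 it was at 261 CPM in the lowest group, at 530 CPM in the second and at 38.7 CPM in the sixth. Cd63 was highest in the lowest group, at 3173 and 4236 CPM, and was at 409 and 579 CPM in the highest. The plate 2 value of the lowest group includes the well at 12913 CPM of Cd63. Cd63 was lower where Pmp22 was higher in both plates, with Spearman's rho between Cd63 and Pmp22 over single wells of -0.60 (187 wells) and -0.67 (183 wells). Rap2b was highest in the lowest group, at 142 and 63.0 CPM, and the plate 1 value includes both wells of column 16. In the other groups it had no order, between 7.67 and 48.3 CPM. Smim5 was at 101 and 125 CPM in the lowest group, at 50.6 and 51.1 CPM in the second and at 5.26 and 8.19 CPM in the third. Where a gene was highest depended on the measure and the groups. The median well of Cd63 in plate 1 was at 2057 CPM in the lowest group and 2274 CPM in the second. Medians of Rap2b were highest in the second group of plate 1 and the third of plate 2. Summed Cd63 of plate 1 was at 2037 CPM in wells under 5000 CPM of Pmp22 and at 3460 CPM in those at 5000 to 10000 CPM. Nipal1 levels on either side of the 30000 CPM limit of Pmp22 were 512 and 216 CPM in wells at 25000 to 30000 CPM (9 and 7 wells), and 154 and 102 CPM in wells at 30000 to 35000 CPM (13 and 4 wells). Cd63 in the same wells was at 1635 and 1555 CPM below the limit and 1167 and 877 CPM above it.

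**Figure D3:**
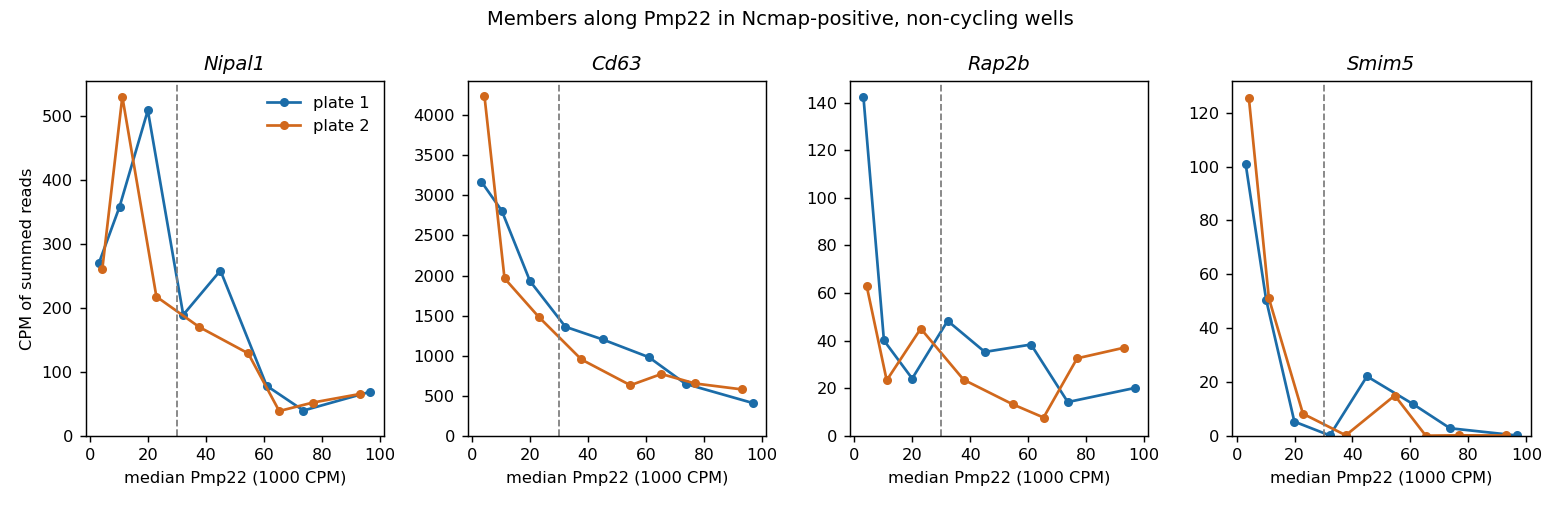
CPM of summed reads of each member against the median Pmp22 (in 1000 CPM) of 8 groups of wells ranked by Pmp22, in blue for plate 1 and orange for plate 2. The dashed line is the limit between intermediate and myelinating cells. Nipal1 reaches its maximum in the group next to the lowest or the one after (530 and 509 CPM), and by summed CPM the other 3 members start at their highest. The first Rap2b point of plate 1 includes the 2 wells highest in Rap2b.

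The split of a state at its median Pmp22, within each plate, was tested with edgeR's quasi-likelihood test over all genes. It reuses the wells and the direction along Pmp22 on which the members were chosen, so its values are no independent support for their pattern. Within intermediate cells, 0 of 4 members passed an adjusted p of 0.05, as did 0.23% of 13909 genes. At an unadjusted p under 0.05 there were 2, Cd63 and Smim5, and DESeq2 called 0. Nipal1 was at 232 and 345 CPM in cells below the median and at 497 and 296 CPM above it, opposite directions in the 2 plates, with a log2 change of 0.55 (SE 0.36, edgeR adjusted p = 0.677). Cd63 was at 2881 and 3419 CPM below and 2159 and 1641 CPM above, with a log2 change of -0.64 (SE 0.21, edgeR adjusted p = 0.333). The well highest in Cd63 in plate 2 gave 20881 of the 71464 reads behind its value below the median. Rap2b was at 110 and 46.9 CPM below and 43.0 and 41.3 CPM above (-0.83, SE 0.54, edgeR adjusted p = 0.675). The plate 1 value below the median rests largely on the 2 highest Rap2b wells, both in column 16. They gave 1232 and 393 of its 2378 reads. Smim5 was at 77.9 and 92.1 CPM below and 17.1 and 28.0 CPM above (-1.84, SE 0.65, edgeR adjusted p = 0.415). Few wells carried these values, since 5 wells gave 94.2% of the intermediate Smim5 reads in plate 1 and 66.3% in plate 2.

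Within myelinating cells, 0 of 4 members were called with edgeR, as was 0.00719% of all genes, which is 1 gene. At an unadjusted p under 0.05 there were 3 members, and DESeq2 called 2, Nipal1 and Smim5. Nipal1 was at 189 and 122 CPM below the median Pmp22 and 51.4 and 58.0 CPM above it, a log2 change of -1.37 (SE 0.36, edgeR adjusted p = 0.961). Of the Smim5 reads of this state, 1 well gave 63.9% in plate 1 and another 95.7% in plate 2, both below the median. The Smim5 change within the state thus rests on isolated wells. Smim5 was at 16.1 and 5.84 CPM below and 1.08 and 0.113 CPM above, a change of -4.03 (SE 0.74, edgeR adjusted p = 0.278). Over 15 alternatives its log2 change ran from -6.44 to -3.11, and 10 of them left it without a call as here. Cd63 was at 1224 and 812 CPM below and 501 and 626 CPM above, a change of -0.72 (SE 0.21, edgeR adjusted p = 1). Rap2b was at 33.3 and 14.7 CPM below and 18.9 and 31.2 CPM above, in opposite directions in the 2 plates.

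Cycling against immature cells is a contrast that did not choose Nipal1, Cd63 and Smim5, although it holds the immature wells with which intermediate cells were compared. Of these, 0 of 3 were called with edgeR, against 2.58% of 13904 genes in either direction. At an unadjusted p under 0.05 there was 1, Cd63, which DESeq2 also called. Cd63 had a log2 change of -0.60 (SE 0.13, edgeR adjusted p = 0.0528), where the median of all genes was -0.13. The adjusted p was 0.0302 with the plate as a block and 0.0275 without the plate 1 cycling sum, and ran from 0.00506 to 0.300 over 15 alternatives, 9 of which called it. Nipal1 had a change of -0.53 (SE 0.31, edgeR adjusted p = 0.445), with plate ratios of -0.019 and -1.31. Smim5 had a change of 0.012 (SE 0.42, edgeR adjusted p = 1), and its sign turned under 5 of 15 alternatives, among them totals without the 10 genes with most reads. Rap2b was at 0.821-fold its immature level in cycling cells, a description.

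Few genes were called with a peak in intermediate cells, the shape named by the label of the group. A gene that was not called may still have that shape. Over all genes tested, 0.985% were called higher in intermediate than in immature cells and 1.01% lower, and 0.36% were called higher in myelinating than in intermediate cells and 0.424% lower. Called both higher than immature and higher than myelinating was 1 gene of 13904 (0.00719%), Lpcat1, a lysophospholipid acyltransferase gene named after its values were seen. Its log2 changes were 2.72 (SE 0.20, edgeR adjusted p = 0.000398) and, from intermediate to myelinating, -1.48 (SE 0.19, edgeR adjusted p = 0.00900). The second call was lost without any 1 of the 4 intermediate and myelinating sums, with adjusted p from 0.0509 to 0.0881. DESeq2 called 27 genes of this shape. The fitted log2 changes of the members, given without a test, were 1.13 (SE 0.31) and -1.51 (SE 0.31) for Nipal1 and 0.24 (SE 0.13) and -1.44 (SE 0.13) for Cd63. They were -0.038 (SE 0.37) and -1.03 (SE 0.37) for Rap2b, and -2.81 (SE 0.46) and -3.00 (SE 0.46) for Smim5.

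Of the tetraspanins other than Cd63, 4 were called over the 2 steps, each of them as a rise. Of 29 further tetraspanin genes, 21 passed the filter on low counts, and the other 8 were at no more than 0.223 CPM on average. Between immature and intermediate cells 3 rose and 0 fell, with a median log2 change of -0.16 over the 21 against -0.03 over all genes. Cd9, which partners with integrins in the cell membrane, was at 1987 and 1831 CPM in immature, 3469 and 2965 CPM in intermediate and 11301 and 12141 CPM in myelinating cells. It rose by 0.89 (SE 0.12, edgeR adjusted p = 0.00846) and again by 2.11 (SE 0.13, edgeR adjusted p = 0.000189). Where Cd63 was 3.23-fold lower in myelinating than in intermediate cells, Cd9 was higher in both plates. Tspan13 rose from 134 and 146 CPM in immature to 302 and 378 CPM in intermediate cells (log2 1.41, edgeR adjusted p = 0.00725), and Tspan17 from 258 and 223 to 542 and 534 CPM (1.30, edgeR adjusted p = 0.0171). Tspan3 rose only from intermediate, at 652 and 637 CPM, to myelinating cells, at 917 and 964 CPM (0.79, edgeR adjusted p = 0.0364), a step at which 2 tetraspanins rose and 0 fell (median 0.15 over the 21). Fitted changes of either sign were about as many, 9 above and 12 below 0 at the first step and 11 above and 10 below 0 at the second. Tspan18 was at 98.8 and 113 CPM in immature, 25.7 and 21.5 CPM in intermediate and 5.42 and 4.45 CPM in myelinating cells, without a call at either step. With 1 of the immature sums left out Tspan17 lost its call (adjusted p 0.0611 and 0.131), as it did without the plate 1 intermediate sum (0.0644). Tspan13 lost it without the plate 1 immature sum (0.0608), Cd9 its first call without the plate 2 immature sum (0.0596), and Tspan3 without any 1 of the 4 sums compared (0.150 to 0.248). The first change of Cd9 moved with the Pmp22 limit of the intermediate state, from 0.49 at 20000 CPM (edgeR adjusted p = 0.102) to 1.503 at 45000 CPM, against 0.89 at 30000 CPM.

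**Figure D4:**
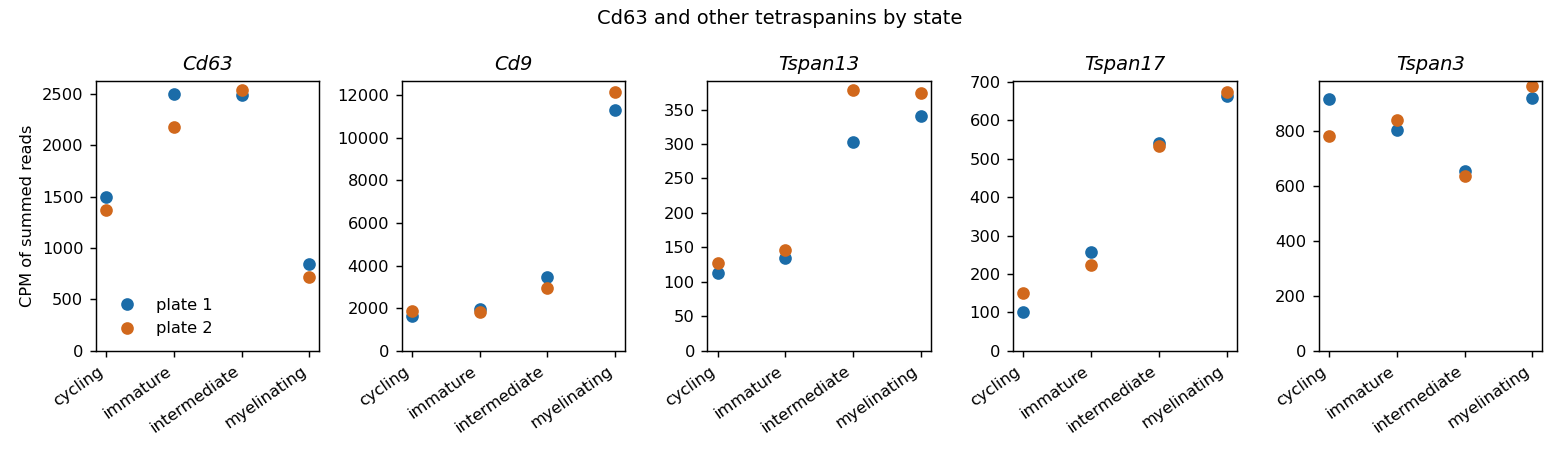
CPM of summed reads of Cd63 and the 4 called tetraspanins by state, 1 point per plate, on linear axes from 0 that differ between genes. Cd63 is at 843 and 717 CPM in myelinating cells while Cd9 reaches 11301 and 12141 CPM.

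In 4 lists of genes from the compartments and families of the members, 3 genes were called at the first step and 0 at the second, beside 0.985% higher and 1.01% lower, then 0.36% higher and 0.424% lower, of all genes. The median log2 change of all genes was -0.028 and then 0.0026. Of 30 late endosome and lysosome genes tested, 1 rose and 0 fell from immature to intermediate cells (median log2 change -0.04), and 0 were called from intermediate to myelinating (median 0.022), with 4 at an unadjusted p under 0.05. The one that rose was Ctsd, the lysosomal protease cathepsin D, from 774 and 713 to 1136 and 1127 CPM (0.74, SE 0.13, edgeR adjusted p = 0.0281). Lamp1, a main protein of the lysosomal membrane, was at 1038 and 988 CPM in immature and 909 and 936 CPM in intermediate cells, without a call. Of 18 genes of multivesicular bodies and vesicle release tested, 1 fell and 0 rose (median 0.19), and 0 were called at the second step (median -0.046), with 0 at an unadjusted p under 0.05. Rab31, a GTPase of endosomal transport, fell by 1.89 on the log2 scale, from 482 and 713 to 154 and 140 CPM (SE 0.25, edgeR adjusted p = 0.00725). Of 22 Rap GTPases, regulators and effectors tested, 1 fell and 0 rose (median -0.07), and 0 were called at the second step (median 0.27, with 15 of 22 above 0), with 1 at an unadjusted p under 0.05. Rap1a fell by 0.87, from 314 and 341 to 159 and 167 CPM (SE 0.18, edgeR adjusted p = 0.0462, and 0.0568 with the plate as a block). Rap2a, another Rap2 gene of the list, was at 252 and 187 CPM in immature and 118 and 95.1 CPM in intermediate cells without a call. Rap2c was low, at 3.86 and 5.41 CPM in immature and 9.49 and 3.46 CPM in intermediate cells, also without a call. Of 15 magnesium transport genes tested, 0 were called at the first step (median 0.24, 2 at an unadjusted p under 0.05) and 0 at the second (median 0.63, with 11 of 15 above 0 and 1 at an unadjusted p under 0.05). DESeq2 called 12 genes of the 5 lists at the first step and 9 at the second, where edgeR called 6 and 2. Without any 1 of the 4 immature and intermediate sums both Ctsd (adjusted p 0.105 to 0.212) and Rap1a (0.162 to 0.290) lost their calls, while Rab31 was called under all 15 alternatives.

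The genes whose levels over the 8 sums were most like each member were sought among 6312 genes with a mean of at least 20 CPM, by Pearson's r of log2(CPM + 10). These r describe 8 sums that share 2 plates and 4 states. For Nipal1 they were Cyc1, a subunit of respiratory complex III (r = 0.99), Dnaja1, a co-chaperone (0.96), and Shc1, an adaptor of receptor tyrosine kinases (0.95). Shc1 was at 68.1 and 58.3 CPM in intermediate cells and at 12.1 to 25.7 CPM in the other 6 sums. For Cd63 they were Rpl4, a ribosomal protein gene, Ahnak2 and Nudt9, all with r of 0.98 to 0.99. Ahnak2 was at 214 and 262 CPM in intermediate, 275 and 169 CPM in immature and 33.5 and 22.7 CPM in myelinating cells. For Rap2b they were Eif3i, a translation initiation factor gene, Ppp4c, a phosphatase subunit, and Psmd4, a proteasome subunit (0.97 to 0.98). For Smim5 they were Nr4a1, an early-response nuclear receptor, Lpar4, a receptor for lysophosphatidic acid, and Rflna (all 0.99 to 1.00). Nr4a1 was at 1242 and 1374 CPM in immature and 485 and 556 CPM in intermediate cells. Among the members themselves r was 0.77 between Nipal1 and Cd63, 0.87 between Cd63 and Rap2b, and 0.04 between Nipal1 and Smim5. Over single intermediate wells within a plate, Spearman's rho between a member and its 3 most like genes ran no higher than 0.30, the value for Cd63 and Ahnak2 in plate 1 (0.27 in plate 2).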

How the data were processed

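Single sorted SCs of mouse sciatic nerve at P5 were read with Smart-Seq2 on 2 plates of 384 wells. The authors deposited 1 table of whole-number read counts, with genes as rows and wells as columns, not normalized. Per the labels, the authors used bcl2fastq, STAR 2.6.1c and featureCounts with GRCm38.p5, and the methods of the study name another STAR version and a human build. Identifiers were matched to GENCODE vM21, 25664 of 25700, and the other 36 held 0.0821% of the reads. Reads carry no molecular identifiers, so intervals (exact Clopper-Pearson, 95%) cover counting error only. No doublet caller was run.

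Raw counts were summed per plate and state (8 sums), or with the intermediate and myelinating states split at the median Pmp22 of each plate (12 sums). Sums were fitted with edgeR 4.0.16 in R 4.3.3 (quasi-likelihood test, TMM, filterByExpr), with Benjamini-Hochberg adjustment over all genes tested at 0.05. The standard errors were derived from that test, as the size of the log2 change over the square root of its F statistic. DESeq2 1.42.0 was an alternative, as were other limits, totals and filters. Plots were drawn with matplotlib 3.10.9.

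The members and gene lists were chosen with earlier results of these data known. Genes named besides the members were the called list genes with a mean of at least 20 CPM, up to 4 per list and contrast, the 3 genes most alike to each member, overlapping neighbours and cell type markers. Lamp1, Rap2a, Rap2c, Tspan18 and Lpcat1 were named outside this rule, after their values were seen. Plate numbers pair the sums, since the states of a plate come from the same animals. Deviations of same-plate sums correlated weakly, with r from -0.0095 to 0.12 over 1990 genes for 6 pairs of states. The 5 lists hold 1 symbol that was not matched to a unique row. The driver of the Cre and 1 marker of all Schwann cells are withheld items and are not reported here.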

Additional observations from a re-analysis of the deposited data

Results flagged for a closer look

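The 113 wells that entered no comparison, which were corner wells or had under 1500 genes, held 7437553 reads, among them reads of all 4 members. They are listed because 3 reads of that total would be 0.403 CPM and each member lay above it. Nipal1 had 673 reads there (90.5 CPM, in 15 wells), Cd63 8722 reads (1173 CPM, in 62 wells) and Smim5 2801 reads (377 CPM, in 12 wells), of which 1 well, in row G and column 8 of plate 1, held 2705. Rap2b had 7490 reads, or 1007 CPM, which is above its level in each of the 8 sums. Of these, 5739 were in the well in row I and 1177 in that in row O, both in column 16 of plate 1, the column of the 2 highest retained wells. Their source was not tested.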

How the results depend on the processing

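With 2 plates, p-values rest on 4 residual degrees of freedom over 8 sums, or 6 over 12. A difference that was not called may therefore be one that this depth and number of plates could not show, and where 1 sum was left out the lone plate of that state was assumed to vary like the other states. Genes called between intermediate and immature cells numbered 278, and 1037 with DESeq2, 692 with no filter on low counts, 473 with wells thinned to 100000 reads and 134 to 213 with 1 sum left out. Between myelinating and intermediate cells there were 109 calls, against 740, 435 and 214 under the first 3 of these alternatives. Genes called highest in intermediate cells numbered 1, against 27 with DESeq2, 17 with no filter, 2 with thinned wells, 2 with the plate as a replicate block, 0 with a Pmp22 limit of 20000 CPM, and 0 to 1 with 1 sum left out. Called genes of the 5 lists numbered 6 at the first step, against 12 with DESeq2, 12 with no filter and 2 to 4 with 1 sum left out. At the second step they numbered 2, against 9 with DESeq2, 5 with no filter, 4 with thinned wells, 1 with a Pmp22 limit of 20000 CPM, 1 with totals without the 10 genes with most reads, and 1 to 2 with 1 sum left out.

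Members called between cycling and immature cells numbered 0, and 1 (Cd63) with DESeq2, no filter, the plate as a replicate block, columns 8 and 16 left out, a minimum of 2500 genes, a Pmp22 limit of 45000 CPM, totals without the 10 genes with most reads and thinned wells, and 0 to 1 with 1 sum left out. Above against below the median Pmp22 of intermediate cells, 0 were called, against 2 with no filter, 1 with a Pmp22 limit of 45000 CPM and 1 with thinned wells, and 0 with 1 sum left out. In myelinating cells 0 were called, against 2 with DESeq2, 3 with no filter, 1 with thinned wells, and 0 to 1 with 1 sum left out. The block changed the call of no other member. Members highest in intermediate cells in both plates numbered 1, against 2 (Cd63 joining Nipal1) without columns 8 and 16, with a Pmp22 limit of 20000 CPM, with an Ncmap limit of 50 CPM, with totals without the 10 genes with most reads, with thinned wells and with the mean of well CPM, which was added after seeing the data. With plate 2 alone the 2 were also Nipal1 and Cd63, and with plate 1 alone they were Nipal1 and Rap2b.

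The sign of a change that was not called turned for Nipal1 within intermediate cells with a Pmp22 limit of 45000 CPM (-0.35) and for Rap2b there with thinned wells (0.054). For Rap2b within myelinating cells it turned with a Pmp22 limit of 20000 CPM (-0.010) and without either plate 2 sum, with values from -0.28 to 0.92 when 1 sum was left out. For Smim5 between cycling and immature cells it turned with the replicate block (-0.029), with totals without the 10 genes with most reads (-0.10), with thinned wells (-0.16), without the plate 1 cycling sum and without the plate 2 immature sum, with values from -0.35 to 0.30 when 1 sum was left out. The thinned wells hold neither of the 2 wells highest in Rap2b, which had 17028 and 65867 reads. The cause of these shifts was not tested.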
